A study of Mus musculus with 8 samples.

Results

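The genes described here are the core of TGF-beta signalling and its nuclear repressors. They are the ligand gene Tgfb1, the receptor genes Tgfbr1 and Tgfbr2, the SMAD genes Smad2, Smad3, Smad4 and Smad7, and the repressor genes Ski, Skil and Tgif1. They were taken by gene symbol from the annotation of the array, each probe apart. Of the 10 genes, 8 had a probe listed under their symbol, among 16593 gene symbols in the table, and they held 15 of its 25697 probes. No probe was listed for Smad7 or Ski, which are not analysed here. The genes were chosen by their measured log2 differences between the arrays labelled G-CSF and saline, so their values in that comparison are given as a description without a test.

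TGF-beta binds a receptor pair in which TGFBR2 activates TGFBR1, and the activated receptor phosphorylates SMAD2 and SMAD3. These join SMAD4 and regulate genes in the nucleus, where TGIF1, SKI and SKIL recruit repressor complexes to SMAD-bound genes and SMAD7 acts back on the receptor as an inhibitor. In regulatory T cells TGF-beta is known as a signal that helps to induce and maintain Foxp3, and as a product that the cells display and release.

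The RNA of both groups came from CD4+GFP+ cells of B6.FoxP3-GFP mice (strain C57BL/6), which the labels call nTreg; by its name this line carries GFP as a mark of FoxP3, the defining factor of regulatory T cells. It was measured on single-colour Illumina bead arrays, which read each transcript through short probes on beads. There were 4 arrays labelled G-CSF, the cytokine that drives neutrophil production, and 4 controls, which the titles call naive and the treatment label calls saline. The sources used here give no dose, route or time of G-CSF, no age or sex of the mice, and no statement that the arrays of a group came from separate mice.

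The intensity columns and the detection p-value columns carried contradictory labels. Each intensity column was ordered perfectly by the p-values that stood next to the like-numbered array of the other group. Groups below follow the labels of the intensities, and if these are the misplaced ones every direction given here is the opposite. Between 9588 and 10519 probes were detected on an array. G-CSF replicates 3 and 4 were the brightest arrays, with median raw intensities of 180.8 and 145, against 117.8 to 125.8 on the other 6. The 8 genes of the regulatory T cell list, Foxp3 among them, were all measured. Their summed intensity was 102342 to 124143 in G-CSF arrays and 97778.7 to 114724 in saline arrays. The list includes Cd4, Cd3e and Cd3g, which mark T cells in general. Cd3g had the highest mean of the list in both groups, 15.08 in G-CSF and 14.71 in saline arrays on the log2 scale. The sum is therefore no measure of regulatory T cell content. Single markers lay in opposite directions, with the 3 Foxp3 probes at 0.49, 0.79 and 0.97 log2 units (G-CSF minus saline) and Ctla4 at -0.57 with groups that did not overlap, and limma called 0 of the 11 probes of this list. Neutrophil markers stood out on saline replicates 1 and 3, where their summed intensity was 1230 and 1084, against 168 to 389 in G-CSF arrays and 171 and 224 on saline replicates 2 and 4. The calprotectin genes S100a8 and S100a9 were both detected on these 2 arrays, with S100a8 at log2 intensities of 9.68 and 9.42, while the 3 probes of the neutrophil granule gene Mpo were not detected on any array. Of the 5 neutrophil genes 0 passed the filter on low signal.

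The ligand gene Tgfb1 was brighter, and the measured repressor genes Tgif1 and Skil were dimmer, on the arrays labelled G-CSF. The receptor and SMAD genes had differences between -0.35 and 0.26. Of the 15 probes, 12 passed a filter for detection on at least 4 of the 8 arrays, and these covered all 8 genes. Their differences, G-CSF minus saline on the log2 scale of background-corrected and quantile-normalised intensity, ran from -1.46 for a Tgif1 probe to 0.87 for Tgfb1. The median was -0.13, against -0.01 over all 10205 probes that passed the filter, and the median size was 0.31 against 0.24. In limma's fit over all probes 1 of the 12 was under an adjusted p of 0.05, a Tgif1 probe that was lower. Over all probes 2.20% were called, 0.951% as higher and 1.24% as lower. Groups did not overlap for 4 of the 12 probes, 2 higher and 2 lower, against 13.6% of all probes, 6.78% higher and 6.85% lower. As the genes were picked with this contrast in view, nothing is read from these counts.

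Tgif1 encodes a homeodomain protein that represses SMAD-bound genes with the help of histone deacetylases. It had the widest difference of the set, and its 3 probes did not show the same size of it. Probe ILMN_1212717 had log2 intensities of 7.57, 7.57, 7.36 and 7.33 in G-CSF arrays (replicates 1 to 4), against 9.63, 8.33, 8.95 and 8.77 in saline arrays. Every G-CSF array lay below every saline array, and the G-CSF arrays sat close together (SD 0.13, n = 4) while the saline arrays were spread (SD 0.54, n = 4). The difference was -1.46 ± 0.24 (SE), a ratio of 0.364, and it lay between -1.66 and -1.22 with any single array left out.

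The brightest Tgif1 probe, ILMN_1253854, had 10.17, 10.37, 10.06 and 10.35 in G-CSF arrays, against 11.57, 10.50, 10.55 and 10.51 in saline arrays. The groups did not overlap here either, but saline replicate 1 stood far above the other 3. With it the difference was -0.55 ± 0.23 (SE), and without it -0.28. The dimmest probe, ILMN_2767113, was detected on 3 of 4 arrays of each group, with 6.40, 6.24, 6.19 and 6.01 in G-CSF arrays, against 7.81, 5.93, 7.44 and 6.63 in saline arrays. These groups overlapped, since saline replicate 2 was the lowest of all 8.

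**Figure D1:**
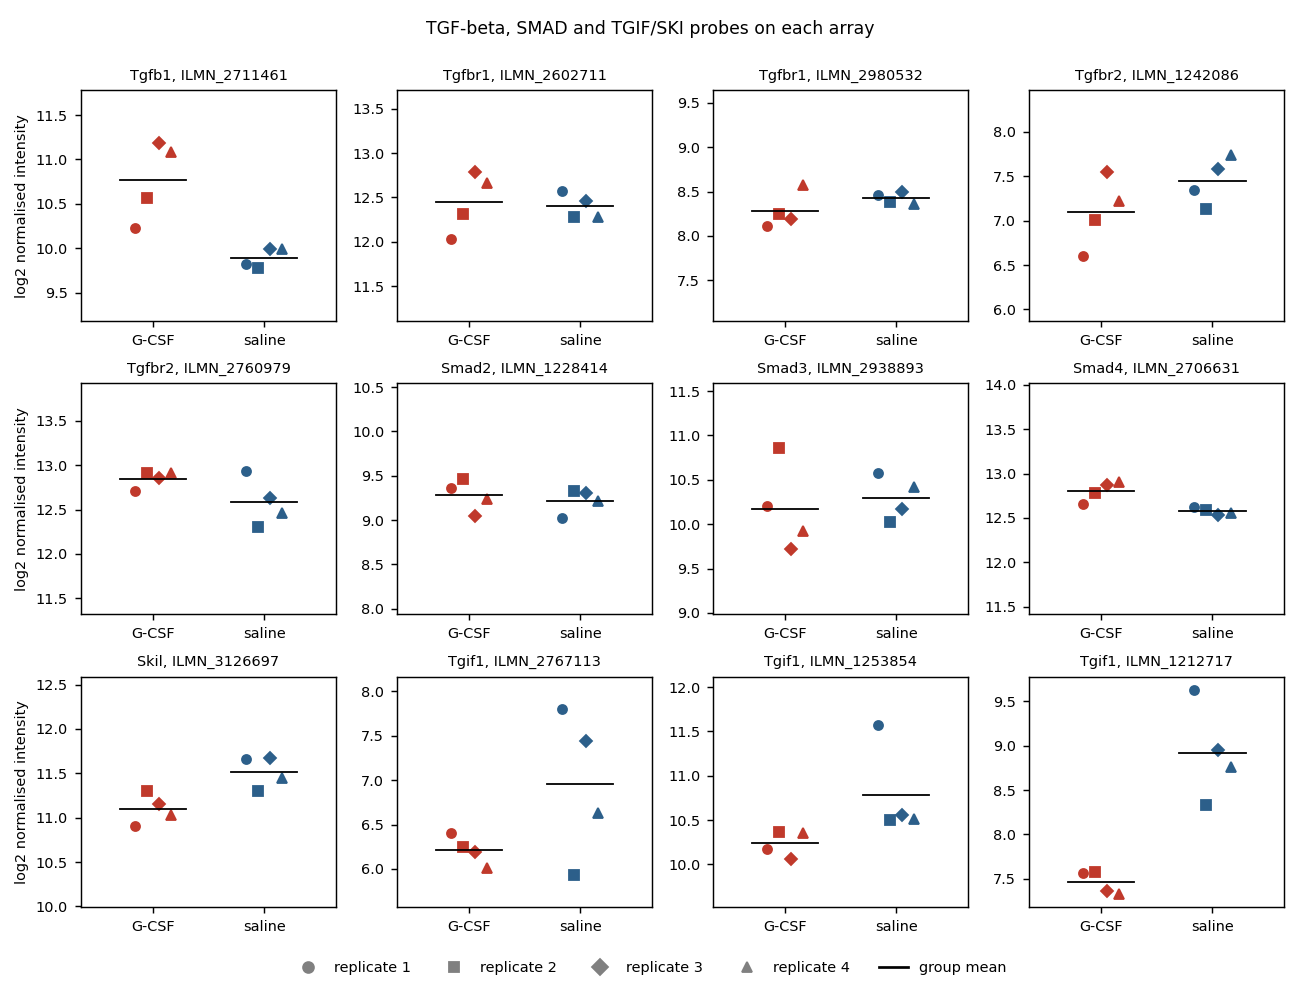
Log2 normalised intensity of the 12 probes that passed the filter, 1 panel per probe, with the 4 G-CSF arrays on the left and the 4 saline arrays on the right; every vertical axis spans the same range of log2 units, symbols give the replicate number and bars the group mean. Tgif1 probe ILMN_1212717 has all G-CSF arrays (7.33 to 7.57) below all saline arrays (8.33 to 9.63), and Tgfb1 has all G-CSF arrays (10.23 to 11.18) above all saline arrays (9.77 to 9.99).

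Saline replicates 1 and 3, the arrays with the highest neutrophil marker sums, were also the highest of the saline arrays on all 3 Tgif1 probes. Without both arrays the difference of ILMN_1212717 was -1.09 ± 0.19 (SE), that of ILMN_1253854 was -0.27 ± 0.17 (SE) and that of ILMN_2767113 was -0.07 ± 0.23 (SE). Neutrophil genes were not limited to those arrays: S100a8 was also detected on G-CSF replicate 1, at 7.62, and the elastase gene Elane on saline replicate 4, at 6.15. The part of neutrophil RNA in the Tgif1 values was not tested. In bulk samples, fewer cells with a transcript and less of it per cell cannot be told apart.

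The probes of Tgif1 can be set against each other within an array, which removes brightness common to both probes. Processing that acts unequally on the probes is not removed. With no background correction the difference of ILMN_1212717 moved from -1.46 to -1.08, and that of ILMN_1253854 from -0.55 to -0.52. ILMN_1253854 exceeded ILMN_1212717 by 2.60, 2.79, 2.70 and 3.02 log2 units in G-CSF arrays, against 1.95, 2.17, 1.60 and 1.75 in saline arrays. The gap between these probes was wider on every G-CSF array, by 0.91 ± 0.16 (SE). The median size of such a shift was 0.25 over all 3369 pairs of probes of 1 gene. RefSeq's promoter table for GRCm38.p6 lists 5 start sites for Tgif1. Which Tgif1 transcripts each probe reads could not be looked up, and a link to the gap was not tested.

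The sequence before a gene's start is shown for Tgif1 and Tgfb1, the genes with the widest differences in either direction. It was searched for CAGAC, the element that SMAD3 and SMAD4 bind, on both strands (as CAGAC or GTCTG), and matches are in capitals. Of all 32851 windows of 250 bases before a start in the RefSeq table, 42.2% held a match. The outermost Tgif1 window, chr17:70853533-70853782 on the minus strand, held 1 match, beginning 201 bases before the start. Among the 5 Tgif1 windows 3 held a match. The Tgfb1 window, chr7:25686752-25687001 on the plus strand, held 0. A match describes letters only and shows no binding.
Tgif1: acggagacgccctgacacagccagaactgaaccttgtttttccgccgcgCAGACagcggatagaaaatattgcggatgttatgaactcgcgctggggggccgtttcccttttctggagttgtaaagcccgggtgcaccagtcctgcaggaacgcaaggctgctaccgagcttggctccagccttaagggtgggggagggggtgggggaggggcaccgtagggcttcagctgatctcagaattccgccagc
Tgfb1: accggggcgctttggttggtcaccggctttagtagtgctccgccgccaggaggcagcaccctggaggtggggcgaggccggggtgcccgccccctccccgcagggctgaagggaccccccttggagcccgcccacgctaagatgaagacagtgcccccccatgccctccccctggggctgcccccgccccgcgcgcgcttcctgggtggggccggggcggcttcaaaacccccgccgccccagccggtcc

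Skil encodes SnoN, a relative of SKI that binds the SMAD complex, blocks its activation of genes and is itself induced by TGF-beta. Probe ILMN_3126697 had 10.91, 11.30, 11.15 and 11.03 in G-CSF arrays, against 11.66, 11.30, 11.67 and 11.44 in saline arrays. The groups touched at replicate 2 of each label, and the difference was -0.42 ± 0.15 (SE, n = 4 per group). It was -0.41 without the 2 brightest arrays, -0.27 without saline replicates 1 and 3, and -0.14 ± 0.18 (SE) with median scaling of the arrays in place of quantile normalisation. Median scaling moved the median difference of all 10205 probes from -0.01 to 0.29, so values given with it, here and below, hold that shift. The second Skil probe, ILMN_2775130, was not detected on any array.

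Tgfb1 encodes the TGF-beta1 ligand, which regulatory T cells make in a latent form. Its probe, ILMN_2711461, had 10.23, 10.57, 11.18 and 11.09 in G-CSF arrays, against 9.83, 9.77, 9.99 and 9.99 in saline arrays. All 4 G-CSF arrays were above all 4 saline arrays, with a spread in the G-CSF group (SD 0.45) that was wider than in the saline group (SD 0.11). The difference was 0.87 ± 0.21 (SE, n = 4 per group), a ratio of 1.83. The 2 highest values were those of G-CSF replicates 3 and 4, the brightest arrays, and without both the difference was 0.50 ± 0.16 (SE). The part of array brightness in it was not tested otherwise. Platelets are a rich source of Tgfb1, and none of the 7 probes for platelet genes (Pf4 and Ppbp among them) was detected on any array. Markers of other blood cells were present. The erythroid sum was 1564 on G-CSF replicate 1 and 587 to 681 on the other G-CSF arrays, against 354 to 846 in saline arrays. The monocyte and macrophage sum was 2223 to 2787 in G-CSF arrays and 1144 to 2521 in saline arrays. Of these lists 2 of 4 and 2 of 5 genes passed the filter, and limma called 0 of their probes. Among them the haemoglobin gene Hbb-bt differed by 1.01 ± 0.34 (SE; limma adjusted p = 0.106), and it was detected on 4 G-CSF arrays and 2 saline arrays. Hba-a1, the other erythroid gene that passed, differed by 0.38 ± 0.35 (SE; limma adjusted p = 0.513). The 2 measured probes of the lysozyme gene Lyz2 differed by 0.54 and 0.60 (limma adjusted p = 0.197 and 0.275). The 2 measured probes of Adgre1, the other monocyte and macrophage gene that passed, lay in opposite directions, at -0.25 and 0.23 (limma adjusted p = 0.756 and 0.775). The CD8 and NK cell sum was 3231 to 4783 in G-CSF arrays and 4440 to 5246 in saline arrays. The B cell sum was 1302 to 1553 in G-CSF arrays and 1387 to 1730 in saline arrays. Of these lists 3 of 5 and 1 of 4 genes passed the filter, and limma called 0 of their probes. The part of platelets or of these other cells in the Tgfb1 difference was not tested. Without saline replicates 1 and 3 the Tgfb1 difference was 0.89.

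**Figure D2:**
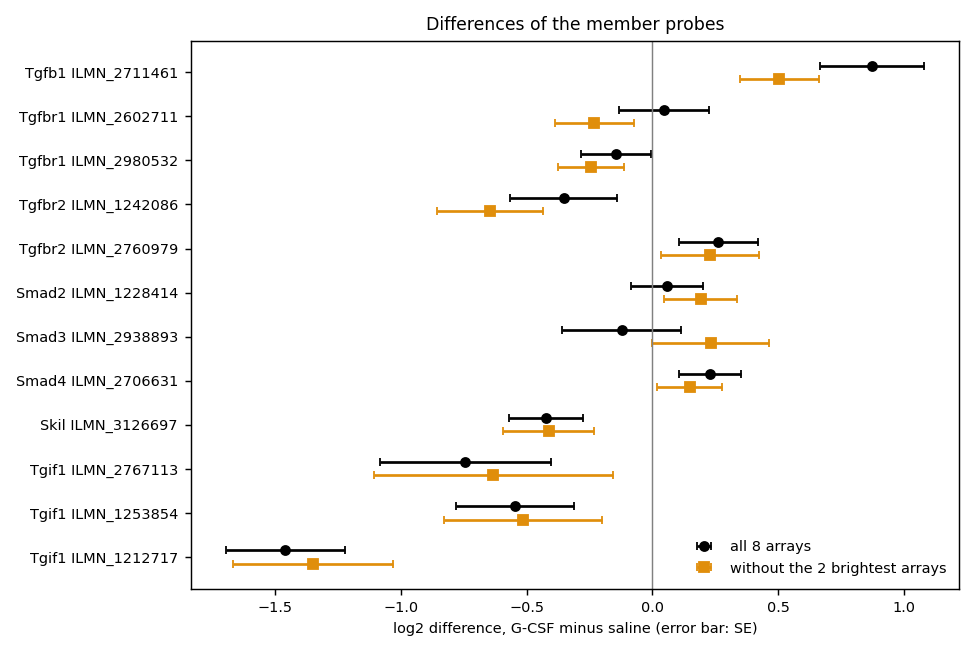
Log2 difference, G-CSF minus saline, of each of the 12 probes with its standard error, with all 8 arrays (black circles) and without the 2 brightest arrays, G-CSF replicates 3 and 4 (orange squares). Tgif1 probe ILMN_1212717 reads -1.46 and -1.35, Tgfb1 reads 0.87 and 0.50, and Smad3 and the brighter Tgfbr1 probe change sign.

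The receptor genes were measured on 4 probes. Tgfbr2 encodes the receptor chain that binds the ligand and starts the signal. Its bright probe, ILMN_2760979, had 12.71, 12.91, 12.85 and 12.91 in G-CSF arrays, against 12.93, 12.31, 12.63 and 12.47 in saline arrays. Its dim probe, ILMN_1242086, had 6.60, 7.00, 7.55 and 7.22 in G-CSF arrays, against 7.34, 7.13, 7.58 and 7.74 in saline arrays. The groups overlapped on both, and the probes pointed in opposite directions, with 0.26 ± 0.16 on the bright probe and -0.35 ± 0.21 on the dim one (SE, n = 4 per group).

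Tgfbr1 encodes the receptor kinase that phosphorylates SMAD2 and SMAD3. Its bright probe, ILMN_2602711, had 12.03, 12.31, 12.78 and 12.66 in G-CSF arrays, against 12.57, 12.28, 12.46 and 12.28 in saline arrays, a difference of 0.05 ± 0.18 (SE). The G-CSF arrays reached further both up and down than the saline arrays. Without the 2 brightest arrays the value was -0.23 ± 0.16 (SE). The dimmer probe, ILMN_2980532, had -0.14 ± 0.14 (SE), and 0.20 with median scaling. The probes ILMN_1214505 and ILMN_2708965 were not detected on any array.

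The SMAD genes carry the signal into the nucleus and had 1 probe each. Smad4, the common partner of the receptor-activated SMADs, had 12.66, 12.78, 12.87 and 12.90 in G-CSF arrays, against 12.62, 12.59, 12.53 and 12.55 in saline arrays. The groups did not overlap, but the gap between them was only that from 12.62 to 12.66, and the difference was 0.23 ± 0.12 (SE, n = 4 per group). Smad2 had a difference of 0.06 ± 0.14 (SE), with 9.05 to 9.46 in G-CSF arrays and 9.02 to 9.33 in saline arrays. Smad3 had the widest spread of the SMAD genes in G-CSF arrays, with 10.20, 10.86, 9.72 and 9.92, against 10.57, 10.03, 10.17 and 10.42 in saline arrays. Its difference of -0.12 ± 0.24 (SE) became 0.23 ± 0.23 (SE) without the 2 brightest arrays, which held its lowest values, and 0.23 with median scaling.

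Probes of other genes were ranked by how closely their log2 values followed these genes over the 8 arrays, as the root mean square distance after each probe was centred on its mean. Nearest to Tgif1 probe ILMN_1212717 were Atf4 (0.205 log2 units), a transcription factor of the stress response, Rgcc (0.216), Coq10b (0.242), Ifng (0.277) and Srsf5 (0.289), a splicing factor, where the median over all probes was 0.840. All 5 had lower means in G-CSF arrays, and all were highest on saline replicate 1, as for Tgif1 itself. Nearest to Tgfb1 were Msl1 (0.101), Pde2a (0.101), Slc9a3r1 (0.111), Trp53i11 (0.111) and Xrcc1 (0.119), against a median of 0.576. On each of these 5 the 2 highest arrays were G-CSF replicates 3 and 4, as for Tgfb1 itself.

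Other genes of the pathway were taken from 6 lists, and 46 of 94 genes had 67 probes that passed the filter. In limma's fit 0 of the 67 were called as higher and 1 as lower, with 18 at an unadjusted p under 0.05. These 18 were 26.9% of the 67, and over all 10205 probes the share at an unadjusted p under 0.05 was 24.9%. The share called over all probes was 2.20%, so the lists held about as many calls as the array at large. Their median difference was -0.08, with 27 positive and 40 negative, against 5049 positive and 5156 negative over all probes.

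The 1 called gene was Smad5, a SMAD of the bone morphogenetic protein branch. Probe ILMN_3076864 fell in G-CSF arrays, with 6.34, 6.72, 6.75 and 6.62, against 8.03, 7.12, 7.56 and 7.39 in saline arrays. The groups did not overlap, and the difference was -0.92 ± 0.20 (SE, n = 4 per group; limma adjusted p = 0.0471). The other 2 Smad5 probes lay the opposite way without passing the test, ILMN_3155789 at 0.55 ± 0.15 (SE; limma adjusted p = 0.0720) and ILMN_1237371 at 0.32 ± 0.13 (SE; limma adjusted p = 0.168). Here too the groups did not overlap, with 8.18 to 8.63 in G-CSF arrays and 7.73 to 8.10 in saline arrays on ILMN_3155789.

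The gap between Smad5 probes was tested within arrays, in a limma fit over all 3369 pairs of probes of 1 gene that was added after these values were seen. ILMN_3155789 minus ILMN_3076864 was 1.84, 1.80, 1.88 and 1.91 log2 units in G-CSF arrays, against -0.31, 0.98, 0.46 and 0.43 in saline arrays. The shift was 1.47 ± 0.23 (SE, n = 4 per group; limma adjusted p = 0.0350), and for ILMN_1237371 minus ILMN_3076864 it was 1.24 ± 0.21 (SE; limma adjusted p = 0.0350). Of all such pairs 3.71% were called, and of the 36 pairs of the pathway lists these were the only 2. Without saline replicates 1 and 3 the difference of ILMN_3076864 was -0.65. The Smad5 fall passed the test in 6 of 20 alternative settings, with a limma adjusted p of 0.00292 to 0.246. With 1 array left out it passed without G-CSF replicate 1 or saline replicate 1 only. With no background correction, in the deposited log2 table and with trend and robust variance it was lost, and the 1 pathway call was instead a higher Nt5e. The larger gap lay between 1.15 and 1.66 in 12 alternative settings, 3 of which kept it past the threshold, with a limma adjusted p of 0.0153 to 0.224. These 12 were the replicate block, array weights and arrays left out. The gap was not fitted with another background, offset, scaling or filter.

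**Figure D3:**
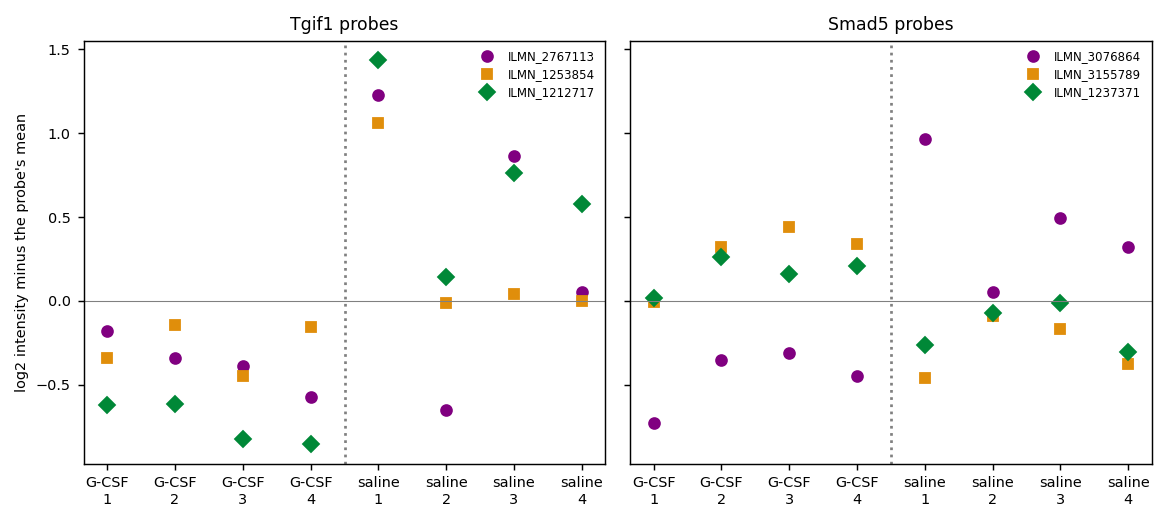
Log2 intensity of the 3 Tgif1 probes (left) and the 3 Smad5 probes (right) on each array, each probe centred on its mean over the 8 arrays, with G-CSF arrays left of the dotted line and saline arrays right of it. All Tgif1 probes peak on saline replicate 1, while Smad5 probe ILMN_3076864 is lower and the other 2 Smad5 probes are higher in the G-CSF arrays.

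Of 16 genes of other ligands and of ligand activation, 4 were measured: Nrros, Itgav, Furin and Mmp14. Of these 0 were called in limma's fit (1 at an unadjusted p under 0.05). The other ligand genes Tgfb2, Tgfb3, Inhba and Inhbb were not detected on any array. Furin, the protease that cleaves the TGF-beta precursor, had 0.93 ± 0.30 (SE, n = 4 per group; limma adjusted p = 0.100). It read 10.71, 11.02, 11.86 and 11.86 in G-CSF arrays, against 11.08, 9.97, 10.26 and 10.42 in saline arrays. As for Tgfb1, the brightest arrays were the highest, and without them the difference was 0.44 ± 0.29 (SE). Nrros, which tethers latent TGF-beta on myeloid cells, had 0.15 (limma adjusted p = 0.525). Of the other receptor genes 3 of 12 were measured and 0 were called, none at an unadjusted p under 0.05 in limma's fit. They included the co-receptor gene Tgfbr3 at -0.21 and the BMP receptor gene Bmpr1a at -0.20 (limma adjusted p = 0.406 and 0.623). Both turned above 0 with median scaling, at 0.12 and 0.0068, where the median over all probes was 0.29.

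Among 24 other corepressors and nuclear partners 12 genes were measured and 0 were called (3 at an unadjusted p under 0.05 in limma's fit). Zeb1, a repressor that binds SMADs, had 9.83, 10.06, 10.26 and 10.09 in G-CSF arrays, against 9.75, 9.46, 9.58 and 9.38 in saline arrays. Its groups did not overlap, and its difference was 0.52 ± 0.15 (SE; limma adjusted p = 0.0754). E2f4, which joins SMAD3 in repressing Myc, had 1.10 ± 0.31 (SE; limma adjusted p = 0.0765) with overlapping groups, and 0.49 ± 0.22 (SE) without the 2 brightest arrays.

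Of 18 genes known to respond to TGF-beta, 10 were measured on 20 probes and 0 were called (6 at an unadjusted p under 0.05 in limma's fit). Of the 20 differences 6 were positive and 14 negative, with a median of -0.14. Over all 10205 probes 5049 were positive and 5156 negative. These are counts of probes, and 6 of the 20 were of 1 gene, Itgae. TGF-beta raises some genes of this list and lowers others, such as Myc, so the signs give no direction of response. Nt5e, which encodes the adenosine-producing enzyme CD73, had 10.59, 10.67, 11.05 and 11.33 in G-CSF arrays, against 10.28, 10.17, 10.07 and 10.14 in saline arrays on ILMN_2636285. The groups did not overlap, the difference was 0.75 ± 0.18 (SE; limma adjusted p = 0.0554), and without the 2 brightest arrays it was 0.47 ± 0.13 (SE). It passed the test in 9 of 20 alternative settings, with a limma adjusted p of 0.00195 to 0.248. Among the 9 were no background correction and the deposited log2 table, which are in effect 1 analysis (limma adjusted p = 0.0492 in both). The brighter Nt5e probe had 0.32 ± 0.14 (SE; limma adjusted p = 0.188). Id3, an inhibitor of E proteins, had 0.84 ± 0.21 (SE; limma adjusted p = 0.0595), with 9.32, 8.93, 9.50 and 9.62 in G-CSF arrays, against 7.98, 8.57, 8.71 and 8.76 in saline arrays. Gadd45b, Id2 and Itgae were named after their values were seen. Gadd45b, a stress-response gene, had -0.77 ± 0.26 (SE; limma adjusted p = 0.104), with 11.20, 12.02, 11.03 and 11.63 in G-CSF arrays, against 12.52, 11.64, 12.30 and 12.52 in saline arrays. The groups overlapped through saline replicate 2. Id2, a relative of Id3, had -0.48 and -0.30 on its 2 measured probes (limma adjusted p = 0.164 and 0.302). Itgae is the gene of the integrin CD103 and a much used TGF-beta target. Its 6 probes lay between -0.34 and 0.02, and limma called 0 of them (1 at an unadjusted p under 0.05).

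Of the genes listed for signalling without SMADs, mainly through the kinase TAK1, all 7 were measured. Of their 11 probes 0 were called (3 at an unadjusted p under 0.05 in limma's fit). Those 3 were the probes of Traf6, a ubiquitin ligase that links the receptor to TAK1, with -0.51, -0.50 and -0.40 (SE 0.15, 0.20 and 0.17; limma adjusted p = 0.0837, 0.160 and 0.189). Mapk14, the gene of p38 alpha, had 0.34 ± 0.20 (SE; limma adjusted p = 0.317), and without the 2 brightest arrays -0.04 ± 0.13 (SE).

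**Figure D4:**
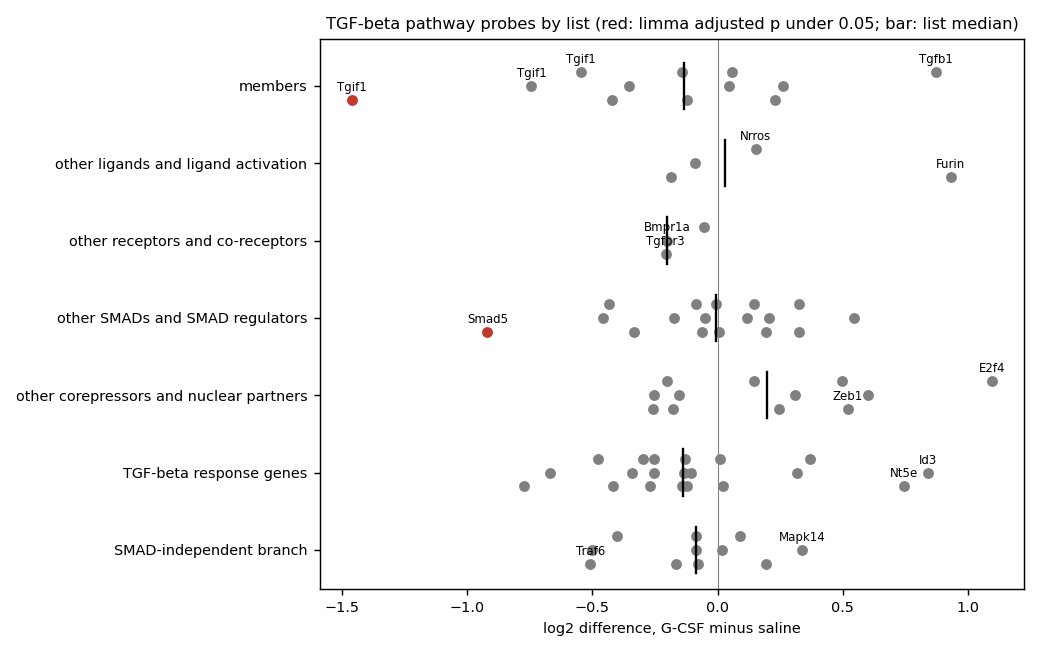
Log2 difference, G-CSF minus saline, of each measured probe of the 10 genes described (top row, labelled members) and of the 6 lists of other pathway genes, with probes called by limma in red and a bar at each list's median. A Tgif1 probe (-1.46) and a Smad5 probe (-0.92) are the only called probes shown.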

How the data were processed

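Per the file headers, the main deposited file gives raw probe intensities of 8 arrays, each with a column of detection p-values. The submitters' processing notes name GenomeStudio without a version. A second deposited table holds log2 values. They were recomputed as log2 intensity, quantile normalised and centred per probe (SD of the difference at most 1.109e-04), so their scale and direction are those of the intensities. The arrays' medians in it lie between -0.00488 and 0.00568. For 12.8% to 23.5% of intensity steps the p-values as placed ran against the intensities (tolerance 0.0001). Each p-value column was therefore joined to the intensities that it orders perfectly.

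The neqc function (limma 3.58.1, R 4.3.3) then subtracted a normexp background estimated from detection, added an offset of 16, quantile normalised the arrays and took log2. A probe was kept if at least 4 arrays had it detected at p under 0.01. Groups of 4 arrays each were compared with lmFit and eBayes of limma, with Benjamini-Hochberg adjustment over 10205 probes, checked on simulated data. No label says that arrays of a group came from separate mice, so the p-values rest on a spread between samples that may be technical only. Of 25697 probes, 23978 had 1 symbol, 0 several and 1719 were unnamed here. Entrez identifiers tied 23962 of them to the RefSeq table of GRCm38.p6. The files name no build, and only the RefSeq promoter windows carry coordinates. No slide or scan batch is given.

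The members and gene lists were chosen with earlier results of these data known. By rule the text names every member probe, each called gene of a pathway list or else the 2 with the smallest p, and the 5 probes nearest to Tgif1 and Tgfb1. Alternatives were other background, offset, scaling, filter and variance settings, array weights, the deposited log2 table, the p-value columns as placed, the replicate block and arrays left out. The deposited log2 table repeats the setting with no background correction, so these are not separate in counts of settings. The pair fit and the setting without 2 saline arrays were chosen after seeing the data. The number of arrays limits the precision.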

Additional observations from a re-analysis of the deposited data

Results flagged for a closer look

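The brightest Tgif1 probe, ILMN_1253854, had a log2 intensity of 11.57 on saline replicate 1, while the other 3 saline arrays lay between 10.50 and 10.55. It was the 1 value that stood far from the other 3 of its group among 46 groups of 4 arrays looked at. By chance about 1 in 20 such groups holds a value like it, so 1 among 46 is not more than chance gives.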

How the results depend on the processing

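Counts of calls depended on the setting. Of all probes, 224 were called (97 higher, 127 lower), against 856 with median scaling (810 higher, 46 lower, with a median shift of all probes of 0.29), 3776 with array weights, 4 without a filter, 3 without saline replicates 1 and 3, 0 without the 2 brightest arrays (1439 at an unadjusted p under 0.05 in limma's fit) and 1 to 1089 with 1 array left out. Of the 12 member probes, whose calls are a description since they were chosen on this contrast, 1 was called. It became 2 with an offset of 50, with median scaling, with detection on all 8 arrays and with trend and robust variance, 5 with array weights, 0 without a filter, without the 2 brightest arrays and without saline replicates 1 and 3, and 0 to 2 with 1 array left out. Of the other pathway probes 1 was called, against 3 with an offset of 50, 7 with median scaling, 2 with detection on all 8 arrays, 23 with array weights, 0 without a filter, without the 2 brightest arrays and without saline replicates 1 and 3, and 0 to 7 with 1 array left out. The cause was not tested.

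With the replicate number as a block limma called 4 of all probes (2413 at an unadjusted p under 0.05), 0 member probes and 0 other pathway probes. Arrays of the same number correlated at -0.12 to 0.18 in their deviations, and arrays of different numbers at -0.29 to 0.31. So few correlations cannot settle whether arrays of the same number were paired or shared a batch.

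Tgif1 ILMN_1212717, at -1.46, stayed between -1.66 and -1.08 in 20 alternatives, and Tgfb1, at 0.87, between 0.50 and 1.20. The directions of Smad2, Smad3 and both Tgfbr1 probes each turned in 1 to 3 of the 20. Median scaling, with its shift of all probes, turned Tgfbr3 to 0.12 and Bmpr1a to 0.0068, and leaving out the 2 brightest arrays turned Mapk14 to -0.038.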
